A study of Mus musculus with 11 samples.

Results

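Astrocytes are the glial cells that surround synapses and capillaries of the central nervous system. Expression of 33 astrocyte genes, 16 associated with the resting state and 17 with the reactive state, was taken from a table of 55487 mouse genes whose RNA was sequenced from spinal cord and from fetal fibroblasts (MEF). The genes were chosen by name, and all 33 were found once in the table. All libraries came from the C57BL/6 strain, and the S87L groups are heterozygotes that carry Morc2a p.S87L on 1 allele. MORC2A is an ATPase of chromatin that takes part in gene silencing. There were 3 libraries of wild-type spinal cord, 3 of S87L spinal cord, 3 of wild-type MEF and 2 of S87L MEF, and the labels give no age and do not say which animals or cultures the libraries of a group were made from. The p-values therefore measure only how libraries of a group differ, which may be technical.

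Resting astrocytes clear glutamate and potassium from the space around neurons, return glutamine, move water along their end feet and are joined to each other by gap junctions. After injury or inflammation they become reactive: they raise intermediate filaments, protease inhibitors and complement proteins, partly through cytokine receptors that act on STAT3. Several genes of the reactive state are also used by fibroblasts, endothelium or immune cells, and whole spinal cord holds all of these.

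Depth, as the reads that could be recovered from the values, was 15.35 to 18.97 M in wild-type and 19.4 to 23.53 M in S87L cord, 14.29 to 15.05 M in wild-type MEF and 12.08 to 14.47 M in S87L MEF. Morc2a was 5.61, 5.66 and 5.71 FPKM (fragments scaled to gene length and library depth) in wild-type and 4.71, 4.93 and 4.95 in S87L cord, summed over both alleles (log2 fold change -0.20, SE 0.04, limma adjusted p = 0.0269). Of the resting members, 16 of 16 were above 0 in every cord library, with summed levels of 2557 to 2614 FPKM in wild-type and 2770 to 2853 in S87L cord. Reactive members, of which Gfap was the highest, summed to 750 to 785 FPKM in wild-type and 721 to 749 in S87L cord. In bulk tissue, fewer cells of a type and less RNA per cell cannot be told apart.

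Promoter sequence is shown for 5 of the members called in cord: the risers Slc1a3, Acsbg1 and Serpina3n and the lower Gfap and C3. The windows of other called members, such as Kcnj10 and Cp, are not shown. The windows are the 250 bases before the annotated start in RefSeq's GRCm38.p6 table, 5′ to 3′ on the gene's strand, and none of these 5 windows overlaps an annotated exon. Capitals mark matches, on either strand, to a STAT motif (TTCNNNGAA) or a C/EBP motif (TTGCNNAA).
Slc1a3, chr15:8710808-8711057, minus strand: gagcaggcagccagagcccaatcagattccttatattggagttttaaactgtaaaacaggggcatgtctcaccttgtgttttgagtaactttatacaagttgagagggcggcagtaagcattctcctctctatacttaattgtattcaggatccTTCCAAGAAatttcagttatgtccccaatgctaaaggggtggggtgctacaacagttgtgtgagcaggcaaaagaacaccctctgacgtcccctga
Acsbg1, chr9:54661886-54662135, minus strand: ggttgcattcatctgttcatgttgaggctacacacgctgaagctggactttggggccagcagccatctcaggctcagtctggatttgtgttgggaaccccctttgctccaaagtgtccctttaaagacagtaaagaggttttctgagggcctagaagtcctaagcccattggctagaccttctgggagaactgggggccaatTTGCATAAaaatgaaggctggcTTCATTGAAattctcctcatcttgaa
Serpina3n, chr12:104406458-104406707, plus strand: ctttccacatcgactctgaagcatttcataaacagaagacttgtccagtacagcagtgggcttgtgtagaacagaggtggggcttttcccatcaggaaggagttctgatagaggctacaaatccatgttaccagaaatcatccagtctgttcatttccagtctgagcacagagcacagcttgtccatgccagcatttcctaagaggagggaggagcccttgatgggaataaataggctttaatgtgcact
Gfap, chr11:102897201-102897450, minus strand: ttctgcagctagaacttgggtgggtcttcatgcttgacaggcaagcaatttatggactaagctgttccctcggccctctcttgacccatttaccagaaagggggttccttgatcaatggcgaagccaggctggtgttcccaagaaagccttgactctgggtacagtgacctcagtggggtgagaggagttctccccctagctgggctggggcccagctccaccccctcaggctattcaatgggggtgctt
C3, chr17:57228137-57228386, minus strand: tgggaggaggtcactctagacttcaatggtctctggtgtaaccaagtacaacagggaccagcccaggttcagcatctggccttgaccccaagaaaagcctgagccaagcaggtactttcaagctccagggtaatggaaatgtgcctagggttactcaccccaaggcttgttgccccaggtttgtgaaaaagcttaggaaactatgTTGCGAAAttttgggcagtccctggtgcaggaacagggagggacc
The STAT letters began 96 bases before the start of Slc1a3 (TTCCAAGAA) and 26 bases before that of Acsbg1 (TTCATTGAA). The C/EBP letters lay 48 bases before the start of Acsbg1 (TTGCATAA) and 45 before that of C3 (TTGCGAAA), and the matches in Acsbg1 did not overlap. The windows of Serpina3n and Gfap held neither. A window was found for 28 of the 33 members. Of these 28, 7 had the STAT letters in at least 1 window (Acsbg1, Aldoc, Emp1, Ntsr2, Slc1a3, Steap4 and Tgm1), against 8.13% of all 27025 genes counted the same way, and 10 had the C/EBP letters, against 10.8%. Of all 32851 windows, 7.02% held the STAT and 9.56% the C/EBP letters. An AP-1 motif (TGANTCA) was in the windows of 3 (Cp, Emp1 and Gja1), against 7.82% of genes. A match is a description of letters and not of binding.

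In wild-type libraries most resting genes were higher in cord, and reactive genes went both ways. In a limma fit of all 11 libraries, 15 of 16 resting members were higher in wild-type cord than in wild-type MEF and 1 was lower, while 7 of 15 tested reactive members were higher and 8 lower; over all 17032 genes tested 87.7% were called, 48.4% higher and 39.3% lower. The median cord minus MEF difference was 6.45 on the log2(FPKM + 0.5) scale for resting and -0.40 for reactive members, beside 0.17 for all genes. Another scaling moved the median of all genes to between -0.15 and 0.19 and no member changed direction.

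**Figure D1:**
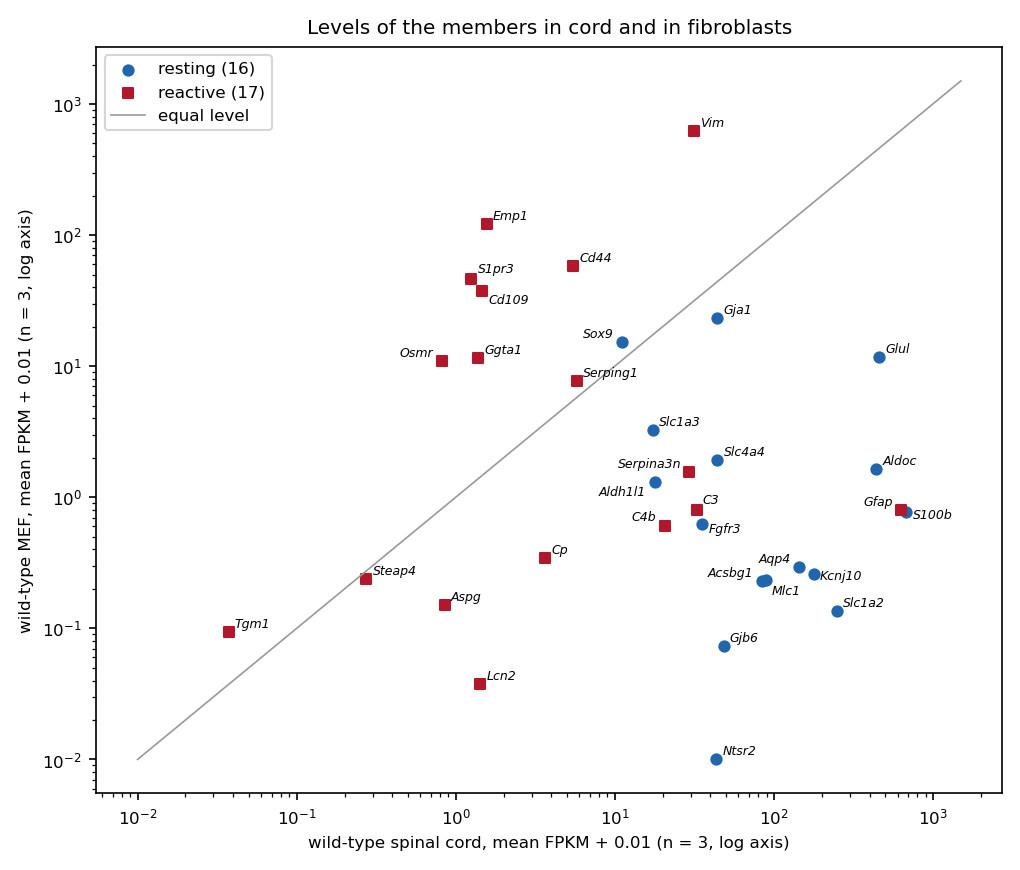
Mean FPKM + 0.01 of each member in wild-type spinal cord (x, log axis) and wild-type MEF (y, log axis), 3 libraries each, with the line of equal level. Resting members (blue circles) lie under the line except Sox9, and reactive members (red squares) lie on both sides, from Vim and Emp1 far above it to Gfap far below.

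Among the resting genes, S100b, a calcium-binding protein, had the highest level in wild-type cord, 682 ± 18.1 FPKM (SD, n = 3). It was followed by Glul, the enzyme that makes glutamine from glutamate, at 462 ± 8.08, and the glycolytic enzyme Aldoc at 441 ± 0.840. Next came the glutamate transporter Slc1a2 at 248 ± 20.1, the potassium channel Kcnj10 at 178 ± 1.49 and the water channel Aqp4 at 145 ± 18.4 FPKM. Neighbours in this order from S100b to Aqp4 did not overlap between their 3 wild-type libraries. The membrane protein Mlc1 (89.1 ± 2.77) and the fatty acid activating enzyme Acsbg1 (84.2 ± 1.78) followed, also without overlap. The means of Gjb6, Gja1, Slc4a4 and Ntsr2 lay between 43.3 and 48.4 FPKM, and Slc4a4 overlapped with each of the other 3. Fgfr3, a growth factor receptor, was at 35.6 ± 0.797, and Aldh1l1, a folate enzyme used as an astrocyte marker, at 17.8 ± 0.759 overlapped with Slc1a3 at 17.3 ± 1.48. The lowest was Sox9, a transcription factor of astrocytes and cartilage, at 11.1 ± 0.590 FPKM.

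Of these 16, 7 reached a mean of 1 FPKM in wild-type MEF: Gja1, Slc1a3, Aldh1l1, Aldoc, Glul, Slc4a4 and Sox9. Sox9 was the resting member that was higher in MEF, at 15.2 ± 0.462 FPKM (SD, n = 3). The gap junction gene Gja1, used by many cell types, was at 23.2 ± 0.0472 FPKM in wild-type MEF. Ntsr2, a neurotensin receptor, had 0 reads in all 5 MEF libraries and 1929 to 3867 reads in each cord library.

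In the reactive list the levels spread further. The intermediate filament Gfap was at 629 ± 15.4 FPKM in wild-type cord and C3, the central complement protein, at 32.7 ± 0.599. Vim, another intermediate filament, was at 31.3 ± 1.77 in cord and 619 ± 6.71 in MEF. The protease inhibitor Serpina3n had 29.5 ± 0.4 FPKM and the complement protein C4b 20.6 ± 0.767 in wild-type cord. Under 2 FPKM in wild-type cord were Emp1, Cd109, Lcn2, Ggta1, S1pr3, Aspg, Osmr, Steap4 and Tgm1. Of these, Emp1 (121 ± 2.04 FPKM), S1pr3 (45.9 ± 0.857), Cd109 (37.4 ± 0.420), Ggta1 (11.5 ± 0.173) and Osmr (10.9 ± 0.608) were well expressed in wild-type MEF. Steap4 had 12 to 21 reads in a cord library and Tgm1 0 to 3, so neither passed the level needed for a test.

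The main comparison asked how the S87L allele changes these genes in spinal cord. Gjb6, Slc1a3, Glul, Ntsr2, Kcnj10 and Acsbg1 of the resting list and Serpina3n, Serping1, C4b, Cp and Cd109 of the reactive list were higher in S87L cord, by 1.14-fold to 1.7-fold, while Gfap (0.922-fold), C3 (0.906-fold) and Cd44 (0.82-fold) were lower. Limma called 6 of 16 resting members higher and 0 lower, with 8 at an unadjusted p under 0.05 in either direction. Of 15 tested reactive members it called 5 higher and 3 lower. The share called over all 15648 genes tested was 5.17% higher and 7.71% lower, and over the 5165 genes with a mean of at least 10 FPKM 8.48% and 5.63%. The median change was 0.11 for the resting and 0.11 for the reactive members on the log2(FPKM + 0.5) scale, beside -0.02 for all genes.

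**Figure D2:**
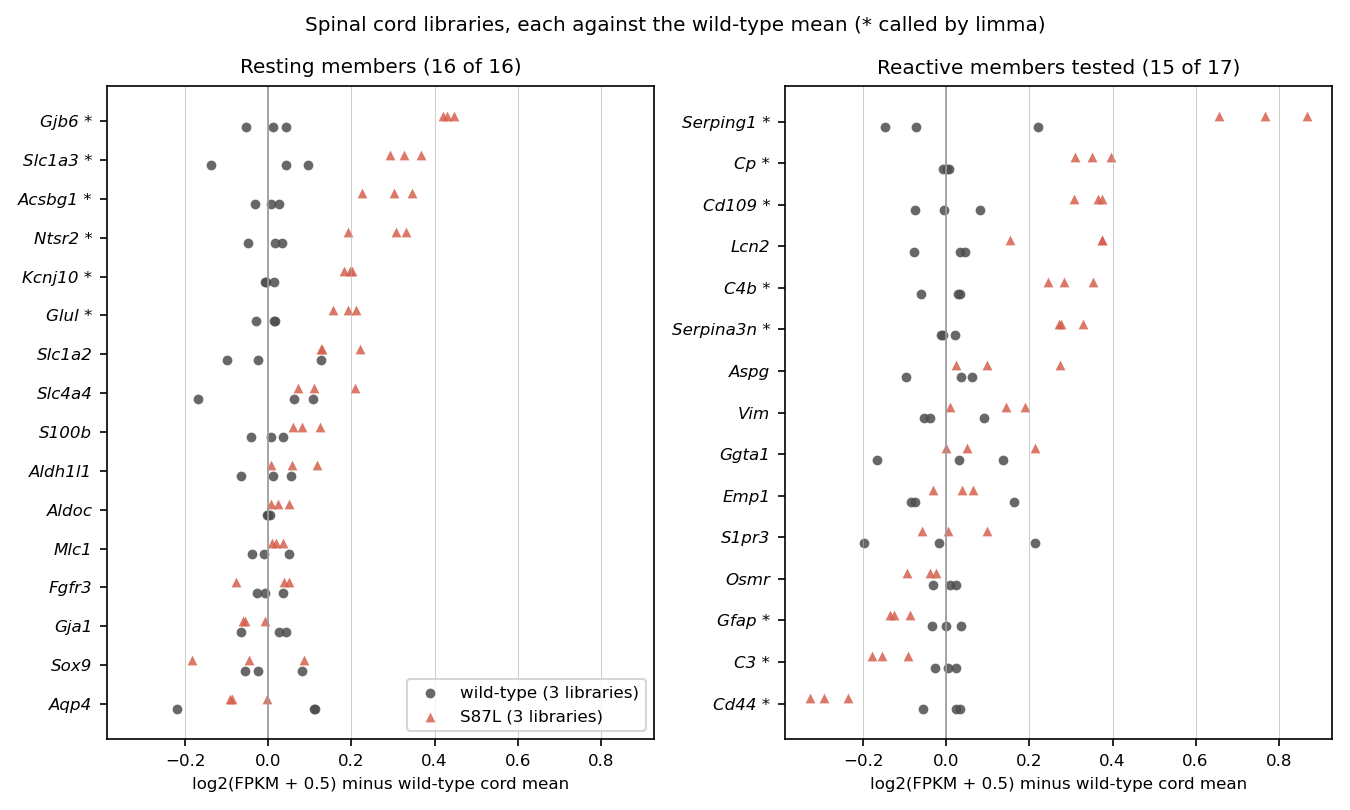
Each spinal cord library's log2(FPKM + 0.5) minus the wild-type cord mean of that gene (x), for 16 resting and 15 tested reactive members (y), with wild-type libraries as grey circles, S87L libraries as red triangles and an asterisk at members called by limma. Most S87L values lie to the right of 0 in both panels, and those of Gfap, C3 and Cd44 lie to the left.

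Gjb6, a gap junction connexin (chromosome 14, 57123303 to 57133611, GRCm38), changed most among the resting genes. Its level was 46.6, 49.8 and 48.7 FPKM in wild-type and 65.4, 64.9 and 66.1 in S87L cord. All S87L libraries were above all wild-type libraries. The log2 fold change was 0.43 (SE 0.04, limma adjusted p = 7.50e-04), or 1.35-fold. The partner connexin Gja1 did not follow it. Its values were 42.1, 44.9 and 45.4 FPKM in wild-type and 42.2, 42.3 and 43.8 in S87L cord, with overlapping groups (log2 fold change -0.04, SE 0.04, adjusted p = 0.539).

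Kcnj10, Glul and Slc1a3 rose by less than Gjb6, and Slc1a2 was not called. Kcnj10, the inward rectifier that takes up potassium (chromosome 1, 172341210 to 172374085), was 177, 180 and 177 FPKM in wild-type and 204, 202 and 204 in S87L cord. Its groups were apart, with a log2 fold change of 0.19 (SE 0.03, adjusted p = 0.00456). Glul (chromosome 1, 153899944 to 153909723) was 453, 467 and 466 FPKM against 527, 515 and 535. It rose by 0.19 (SE 0.03, adjusted p = 0.00772), and 3.49% of its exon bases are shared with other annotated genes. Slc1a3, the glutamate transporter GLAST (chromosome 15, 8634124 to 8710764), was 15.7, 18.5 and 17.8 FPKM in wild-type and 21.3, 21.8 and 22.4 in S87L cord. The rise of 0.33 (SE 0.06, adjusted p = 0.0177) was lost without S87L replicate 1, 2 or 3, with adjusted p up to 0.0628. Slc1a2, the more abundant glutamate transporter, was 231, 270 and 243 FPKM in wild-type and 270, 271 and 288 in S87L cord. The S87L libraries were above the wild-type ones, but wild-type replicate 2 and the lowest S87L library were equal to 3 digits, and the change of 0.16 (SE 0.06, adjusted p = 0.126) was not called, although it was without wild-type replicate 2 (adjusted p = 0.0372), after removal of the GC and length trend (0.00970) and with voom on recovered reads (0.0193).

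The remaining called resting genes were Acsbg1 and Ntsr2. Acsbg1 (chromosome 9, 54604877 to 54661870) was 85.8, 84.6 and 82.3 FPKM in wild-type and 107, 104 and 98.6 in S87L cord. It rose by 0.29 (SE 0.04, adjusted p = 0.00490). Ntsr2 (chromosome 12, 16653382 to 16660227) was 44.3, 41.8 and 43.8 FPKM against 53.7, 54.6 and 49.5. Its groups did not overlap, and the rise of 0.28 (SE 0.05, adjusted p = 0.0111) was lost without S87L replicate 1 or 2, with adjusted p up to 0.0508.

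The water channel Aqp4 was 124, 156 and 156 FPKM in wild-type and 135, 136 and 144 in S87L cord. Wild-type replicate 1 was below and the other wild-type libraries were above all S87L libraries. The change of -0.06 (SE 0.09, adjusted p = 0.693) was not called with all libraries, and without wild-type replicate 1 Aqp4 was called lower (adjusted p = 0.0403). Its neighbour in the end foot, Mlc1, had a change of 0.02 (SE 0.03, adjusted p = 0.737), and the bicarbonate transporter Slc4a4 one of 0.13 (SE 0.08, adjusted p = 0.304). Aldoc, Fgfr3 and Aldh1l1 had changes of 0.03, 0.00 and 0.06, with adjusted p of 0.526, 0.967 and 0.460. Of Fgfr3 13.9% and of Aldh1l1 13.4% of the exon bases are shared with other genes, and the sources used here do not say whether counting used strand. S100b had 0.09 (adjusted p = 0.111), called with median ratio scaling (0.0315) and with voom (0.0404), and Sox9 -0.05 (adjusted p = 0.719).

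The called rises among the reactive genes were Serping1, Serpina3n, C4b, Cp and Cd109. Serping1, the inhibitor of the first complement protease (chromosome 2, 84765387 to 84775444), was 5.42, 5.12 and 6.76 FPKM in wild-type and 10.9, 10.1 and 9.31 in S87L cord. All S87L libraries were above all wild-type libraries. The log2 fold change of 0.76 (SE 0.10, adjusted p = 0.00479; 1.70-fold) was the largest of the 31 tested members. Serpina3n (chromosome 12, 104406729 to 104414329), a protease inhibitor of reactive astrocytes, was 29.3, 29.2 and 29.9 FPKM against 35.7, 37.1 and 35.8. It rose by 0.29 (SE 0.03, adjusted p = 0.00280). C4b (chromosome 17, 34728380 to 34743882) was 21, 21.1 and 19.7 FPKM in wild-type and 26.4, 25.1 and 24.5 in S87L cord, a rise of 0.29 (SE 0.05, adjusted p = 0.00807). C4b has a near-identical copy in the genome, so reads may be split between copies by the counting.

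Cp, the copper-carrying ferroxidase ceruloplasmin (chromosome 3, 19957054 to 20009145), was 3.67, 3.67 and 3.63 FPKM in wild-type and 4.65, 4.80 and 4.97 in S87L cord. It rose by 0.35 (SE 0.05, adjusted p = 0.00479). Cd109, a surface protein that binds TGF-beta (chromosome 9, 78615546 to 78716253), was 1.35, 1.57 and 1.45 FPKM against 2.03, 2.02 and 1.92. The rise of 0.35 (SE 0.07, adjusted p = 0.0206) was lost without S87L replicate 1, 2 or 3 or wild-type replicate 3, with adjusted p up to 0.0836. Lcn2, an iron-binding lipocalin, was 1.47, 1.31 and 1.46 FPKM against 1.63, 1.98 and 1.98, on 51 to 118 reads a library. Its change of 0.30 (SE 0.09, adjusted p = 0.0635) was not called, and it was called with 4 of 11 other settings, from 0.0271 with quantile normalization to 0.0426 with median ratio scaling.

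The intermediate filament gene of the reactive list that was already at 629 FPKM in wild-type cord did not rise. Gfap (chromosome 11, 102887336 to 102900912) was 644, 629 and 614 FPKM in wild-type and 592, 576 and 572 in S87L cord, with all S87L libraries below all wild-type libraries. The log2 fold change was -0.12 (SE 0.03, adjusted p = 0.0438), and the call was lost with any 1 of the 6 libraries left out (adjusted p 0.0716 to 0.150) and under 5 of 11 other settings, up to 0.470 with quantile normalization. C3 (chromosome 17, 57203970 to 57228136) was 33.3, 32.8 and 32.1 FPKM in wild-type and 30.7, 29.3 and 28.9 in S87L cord. Its change of -0.14 (SE 0.04, adjusted p = 0.0485) was likewise lost with any 1 library left out (0.0652 to 0.165) and under 4 of 11 other settings (up to 0.120). Cd44, the hyaluronan receptor (chromosome 2, 102811141 to 102901665), was 5.58, 5.55 and 5.22 FPKM against 4.54, 4.35 and 4.24. It fell by 0.29 (SE 0.05, adjusted p = 0.0132), a call lost without S87L replicate 2 (0.0574). Vim was 33.3, 30.4 and 30.1 FPKM in wild-type and 34.6, 35.7 and 31.5 in S87L cord, with overlapping groups (0.11, SE 0.06, adjusted p = 0.258; 0.0451 with library weights).

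The receptor genes Osmr and S1pr3 and the remaining reactive members showed no called change in cord. Osmr, the oncostatin M receptor, had a change of -0.05 (SE 0.09, adjusted p = 0.737), and S1pr3, a sphingosine phosphate receptor, one of 0.01 (SE 0.12, adjusted p = 0.949). The glycosyltransferase Ggta1 had 0.09 (adjusted p = 0.630), Aspg 0.13 (0.448) and the membrane protein Emp1 0.02 (0.887). The SEs of Osmr, S1pr3, Ggta1, Aspg and Emp1 were 0.09 to 0.12, larger than those of the called members Gjb6, Kcnj10 and Glul. That of Serping1, also called, was 0.10 and within this range. Steap4 was 0.210 to 0.321 FPKM in wild-type and 0.238 to 0.293 in S87L cord, and Tgm1 was at or under 0.0508 FPKM in every cord library.

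Compared with each other, resting and reactive members had list means that were higher in S87L cord, with no separation of the difference between them. In wild-type cord the mean of log2(FPKM + 0.5) over the 16 resting members was 6.32, 6.38 and 6.36, and the S87L libraries had 6.48, 6.48 and 6.48. Over the 15 tested reactive members the 3 wild-type cord libraries had 2.76, 2.75 and 2.75 and the 3 S87L libraries 2.91, 2.92 and 2.87. Summed over the 17 reactive members, FPKM was instead lower in S87L cord, and Gfap made up most of that sum. For the reactive minus resting difference the wild-type values were -3.56, -3.62 and -3.61 and the S87L values -3.57, -3.57 and -3.61, so those groups overlapped. Of the 14 called members, the 8 that kept their call under every other setting and with each library left out were Gjb6, Glul, Kcnj10 and Acsbg1 of the resting list and Serpina3n, Serping1, C4b and Cp of the reactive list. With quantile normalization 6 reactive members were higher and 2 lower (median 0.19) and with median ratio scaling 6 and 1 (median 0.16). Median ratio scaling also moved the split of all called genes, from 809 higher and 1207 lower to 1230 and 874, and the GC and length correction moved it to 1902 and 1456.

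**Figure D3:**
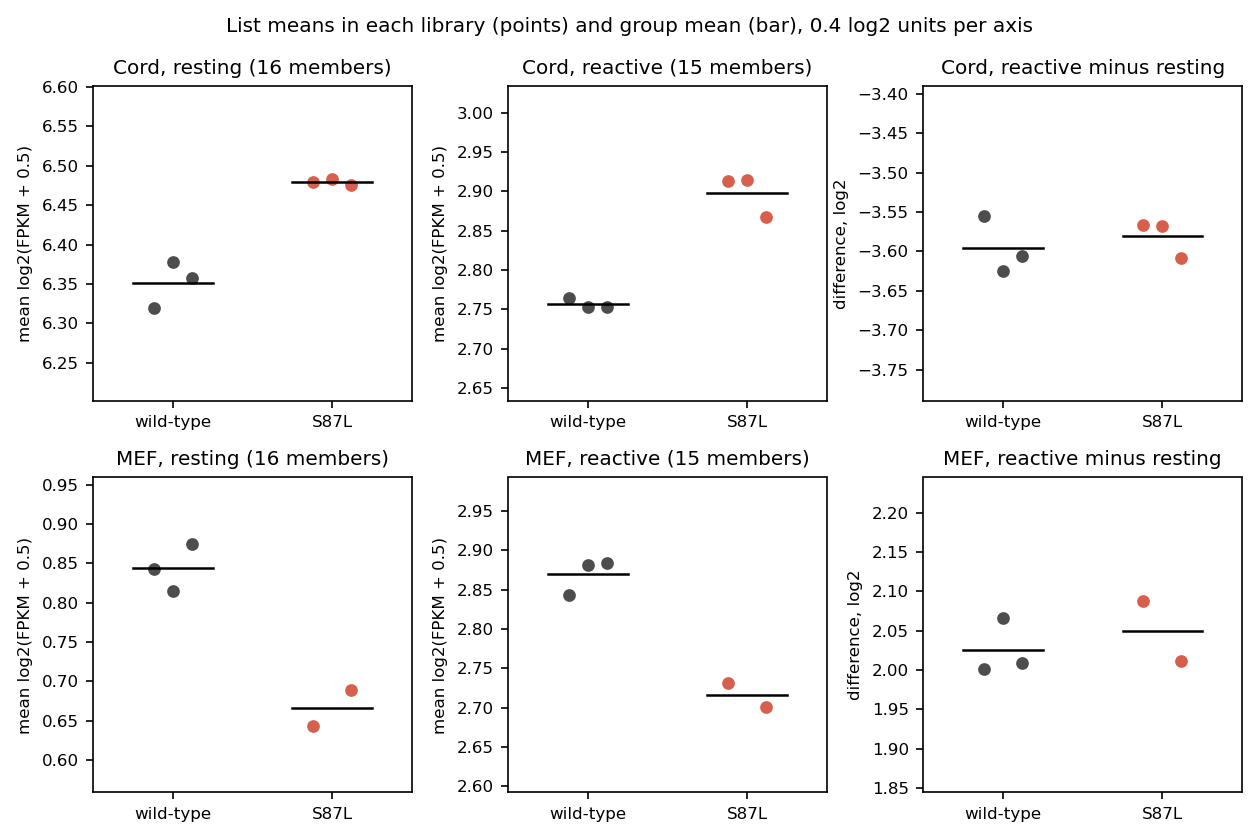
Mean log2(FPKM + 0.5) of the 16 resting members, of the 15 reactive members tested in cord, and their difference, for each library (points) with the group mean (bar), in cord (top) and MEF (bottom); every axis spans 0.4 log2 units. In cord both list means are higher in the 3 S87L libraries and in MEF both are lower in the 2 S87L libraries, while the differences overlap between genotypes. The MEF means include 7 resting and 5 reactive members that were under the level filter in MEF. Summed FPKM was higher in S87L MEF for both lists. Resting members had 60.6 to 60.9 in wild-type and 63.6 to 64.4 in S87L MEF, and reactive members 907 to 923 and 957 to 974. Gja1 was the largest part of the resting sum (mean 23.2 FPKM in wild-type and 31.4 in S87L MEF). Vim made up most of the reactive sum (619 and 659).

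Splitting the lists by their level in wild-type MEF gave called rises on both sides, and in the reactive list called falls on both sides as well. Over all genes tested in cord 5.17% were called higher and 7.71% lower, and the shares by MEF level were not computed. Of the 9 reactive members with at least 1 FPKM in wild-type MEF, 3 rose and 1 fell in cord (median 0.09), and of the 6 tested members under 1 FPKM, 2 rose and 2 fell (median 0.21). Without the trend and robust settings, with no filter on low values, or with any 1 cord library left out, 2 of those 6 were called. Of the resting members, 2 of 7 with at least 1 FPKM in MEF and 4 of 9 under it rose (medians 0.06 and 0.16).

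Markers of other cell types moved in the same cord libraries, where 5.17% of all genes tested were called higher and 7.71% lower. Summed over 14 meningeal and fibroblast genes the level was 36.1 to 39.8 FPKM in wild-type and 64.0 to 66.4 in S87L cord, with 8 of 13 tested genes higher and 0 lower. Microglial and macrophage genes summed to 265 to 270 FPKM in wild-type and 310 to 319 in S87L cord, with 7 of 14 higher. Schwann cell genes summed to 73.9 to 78.2 against 87.2 to 92.7 FPKM (3 of 8 higher), red blood cell genes to 337 to 373 against 410 to 449 (3 of 6 higher) and skeletal muscle genes to 16.6 to 21.7 against 80.1 to 86.5 (10 of 10 higher). No marker of these 5 lists was at 0 in all libraries of a cord group. Endothelial and pericyte genes summed to 121 to 126 FPKM in wild-type and 124 to 126 in S87L cord, with 1 of 14 higher and 1 lower, and ependymal genes to 23.5 to 27.7 and 21 to 24.9, with 2 of 6 lower. Neuronal genes summed to 2429 to 2454 FPKM in wild-type and 2337 to 2407 in S87L cord, with 3 of 14 lower and 0 higher, and oligodendrocyte genes to 4038 to 4083 and 3871 to 4021, with 1 of 13 higher and 1 lower. Neutrophil and lymphocyte genes summed to 31.4 to 36.4 FPKM in wild-type and 25.7 to 29.7 in S87L cord. Of these, 5 were tested and 0 called (median -0.23). In wild-type MEF, Serping1 was at 7.72 ± 0.818 FPKM and Cd109 at 37.4 ± 0.420 (SD, n = 3), and fibroblasts expressed both of these genes. Gjb6, Kcnj10 and Ntsr2, which also rose, were at or under 0.299 FPKM in every MEF library. The part of these cell types in the changes of the members was not tested.

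**Figure D4:**
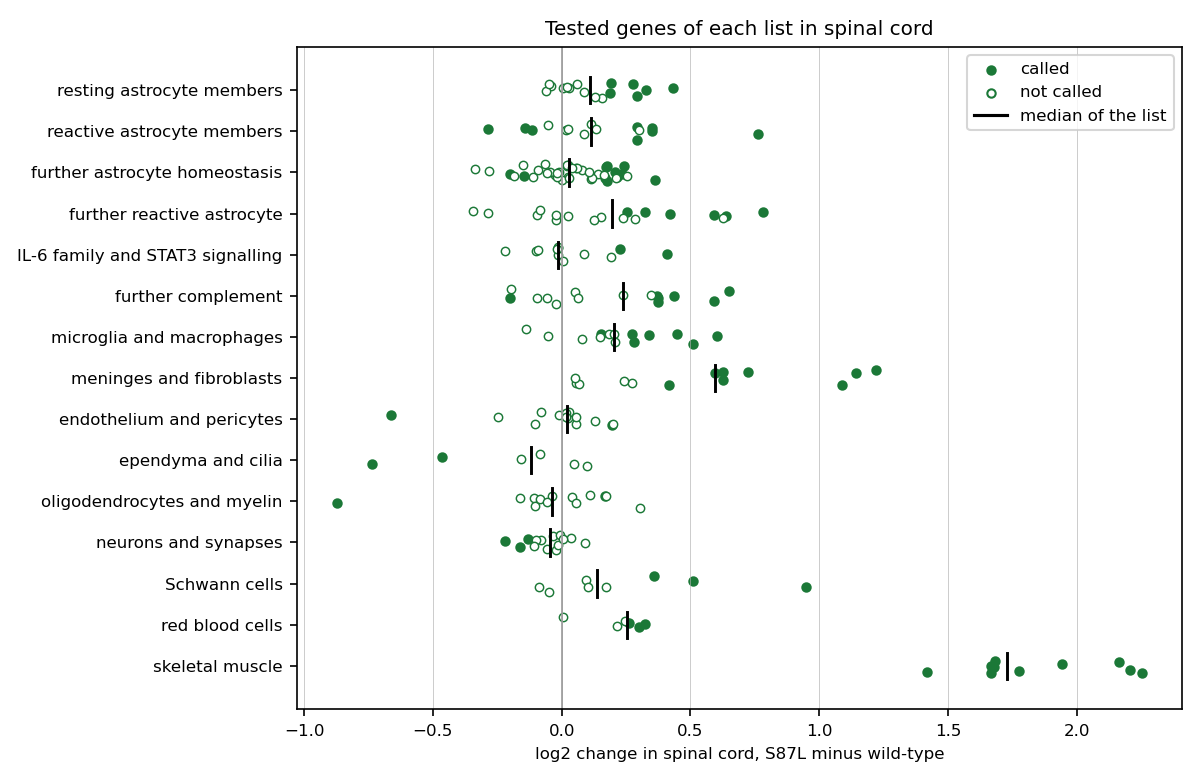
Log2 change in spinal cord, S87L minus wild-type (x), of every tested gene in each list shown (y), filled where limma called it, with the list's median as a black bar. The neutrophil and lymphocyte list and the sex-linked genes are not drawn. The medians of the resting (0.11) and reactive (0.11) members lie between those of the further astrocyte homeostasis list (0.03) and the microglial list (0.20), and the skeletal muscle list (1.73) lies apart.

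Of 41 other genes of astrocyte homeostasis listed and tested, 9 rose, 2 fell and 30 were not called (median 0.03). Over all genes tested in cord 5.17% were called higher and 7.71% lower. Atp1b2, the sodium pump subunit of glia that works beside Kcnj10 in potassium uptake, rose from 268 ± 1.02 to 311 ± 2.67 FPKM (SD, n = 3 each; 0.21, SE 0.02, adjusted p = 0.00278). The phospholipase Pla2g7 rose by 0.21 (adjusted p = 0.00551) and the glucose transporter Slc2a1 by 0.24 (adjusted p = 0.00789). Of 25 further reactive genes 18 were tested, and 6 rose and 0 fell (median 0.20). Fkbp5, a glucocorticoid-induced immunophilin, rose from 4.40 ± 0.232 to 7.92 ± 0.379 FPKM (0.78, SE 0.06, adjusted p = 4.62e-04). Lgals3, a galectin of microglia and fibroblasts as well, rose by 0.59 (adjusted p = 0.00233). Srgn, a proteoglycan of blood-derived cells, had 0.25 (adjusted p = 0.0274) and lost its call when any library except wild-type replicate 3 was left out (up to 0.0921).

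Cytokine signalling genes were tested next. Of 18 IL-6 family and STAT3 pathway genes, 12 were tested, and 2 rose and 0 fell (median -0.01), beside 5.17% higher and 7.71% lower over all genes. The phosphatase Ptpn11 rose by 0.23 (SE 0.03, adjusted p = 0.00693). Cntfr, the receptor for ciliary neurotrophic factor, rose by 0.41 (SE 0.07, adjusted p = 0.0141), a call lost without S87L replicate 1 or 2 or wild-type replicate 3 (up to 0.0574). Of 23 further complement genes 22 were found and 15 tested, and 6 rose and 1 fell (median 0.24). The microglial C1qc rose from 25.1 ± 1.07 to 34.2 ± 1.91 FPKM (SD, n = 3 each; 0.44, SE 0.05, adjusted p = 0.00308). The chaperone Clu, which astrocytes secrete, fell by 0.20 (adjusted p = 0.00804).

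In MEF, Gja1, Cd44, Osmr and Ggta1 were higher and Slc1a3, Aldoc, Serpina3n, Serping1, C3 and S1pr3 lower in S87L libraries. Of 9 resting members tested in MEF, limma called 1 higher and 2 lower, and of 10 reactive members 3 higher and 4 lower, beside 4.91% higher and 6.32% lower over all 13773 genes tested. Gja1 was 23.1, 23.2 and 23.2 FPKM in wild-type and 32.2 and 30.5 in S87L MEF. It rose by 0.43 (SE 0.04, adjusted p = 0.00275) in MEF, against -0.04 in cord. Cd44 was 57.8, 58.3 and 56.7 FPKM in wild-type and 83.4 and 79.0 in S87L MEF, with both S87L libraries above all wild-type ones. It rose by 0.49 (SE 0.04, adjusted p = 0.00171) in MEF and fell in cord. Gja1 and Cd44 kept their MEF calls with each library left out. The rises of Osmr (0.29, adjusted p = 0.0465) and Ggta1 (0.33, adjusted p = 0.0209) were lost without S87L replicate 1 or any wild-type replicate of MEF, with adjusted p up to 0.152 and 0.0777.

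The genes that were lower in S87L MEF were Slc1a3, Aldoc, Serpina3n, Serping1, C3 and S1pr3. Serping1 was 8.63, 7.51 and 7.03 FPKM in wild-type and 4.74 and 5.32 in S87L MEF, a fall of 0.57 on the log2 scale (SE 0.09, adjusted p = 0.0158). C3 was 0.783, 0.856 and 0.731 FPKM against 0.169 and 0.237, on 169 reads over the wild-type and 26 over the S87L libraries (-0.88, SE 0.15, adjusted p = 0.0168). It passed the level filter only through the wild-type libraries. Slc1a3 was 3.23, 3.11 and 3.33 FPKM against 2.35 and 2.19, and Aldoc 1.77, 1.46 and 1.66 against 0.888 and 0.907. The changes of Slc1a3 and Aldoc were -0.43 (adjusted p = 0.0155) and -0.61 (adjusted p = 0.0190). Serpina3n had -0.58 (adjusted p = 0.0446) and S1pr3 -0.18 (adjusted p = 0.0351). Each of these 6 calls was lost with at least 2 of the MEF libraries left out in turn (C3 passed the level filter in 3 of the 5 such fits): that of S1pr3 with any of them (adjusted p up to 0.147), those of Slc1a3 (0.0699) and Serpina3n (0.131) with any wild-type replicate, Serpina3n also with S87L replicate 2, that of Aldoc with wild-type replicate 1 or 3 or S87L replicate 1 (0.0760), that of Serping1 with wild-type replicate 2 or S87L replicate 1 (0.0811) and that of C3 with wild-type replicate 3 or S87L replicate 1 (0.0752).

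Of the 33 members, 14 were too low for the MEF test. Both S87L MEF libraries were below all 3 wild-type ones for 7 of these (Aqp4, Slc1a2, Mlc1, Kcnj10, Gfap, C4b and Steap4) and above them for 1 (Cp), and neither held for 6 (Gjb6, Ntsr2, Acsbg1, Lcn2, Aspg and Tgm1). The share over all genes under the MEF filter was not computed, so these counts have no matching background. Gfap was 0.642, 0.783 and 0.957 FPKM in wild-type and 0.0515 and 0.0619 in S87L MEF, on 140 and 6 reads. Aqp4 had 74 reads over the wild-type and 6 over the S87L libraries, Mlc1 26 and 3, C4b 142 and 38, Kcnj10 56 and 16, Slc1a2 68 and 16, and Cp 133 and 122. Over the 16 resting members, both S87L libraries were below all wild-type ones for 9, and the reverse for 2. Over the 15 reactive members tested in cord, they were below for 7, and the reverse held for 5. The background among 17032 genes tested in either tissue was 23.2% below and 18.2% above. In cord, 9 resting and 6 reactive members had every S87L library above every wild-type one and 0 and 3 below, beside 13.2% and 20.5% of genes. Microglial genes summed to 270 to 274 FPKM in wild-type and 229 to 233 in S87L MEF, with 4 of 13 tested lower and 0 higher. Meningeal and fibroblast genes summed to 3885 to 3906 against 3357 to 3626 FPKM, with 5 of 12 lower. Neuronal genes summed to 32.8 to 34.6 FPKM in wild-type and 38.3 to 42.3 in S87L MEF, with 2 of 3 tested higher and 0 lower, and Chat at 0 in both groups and Snap25, Gad1 and Slc32a1 at 0 in the S87L group. Over all genes tested in MEF 4.91% were called higher and 6.32% lower. The part of other cells in the MEF values was not tested.

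**Figure D5:**
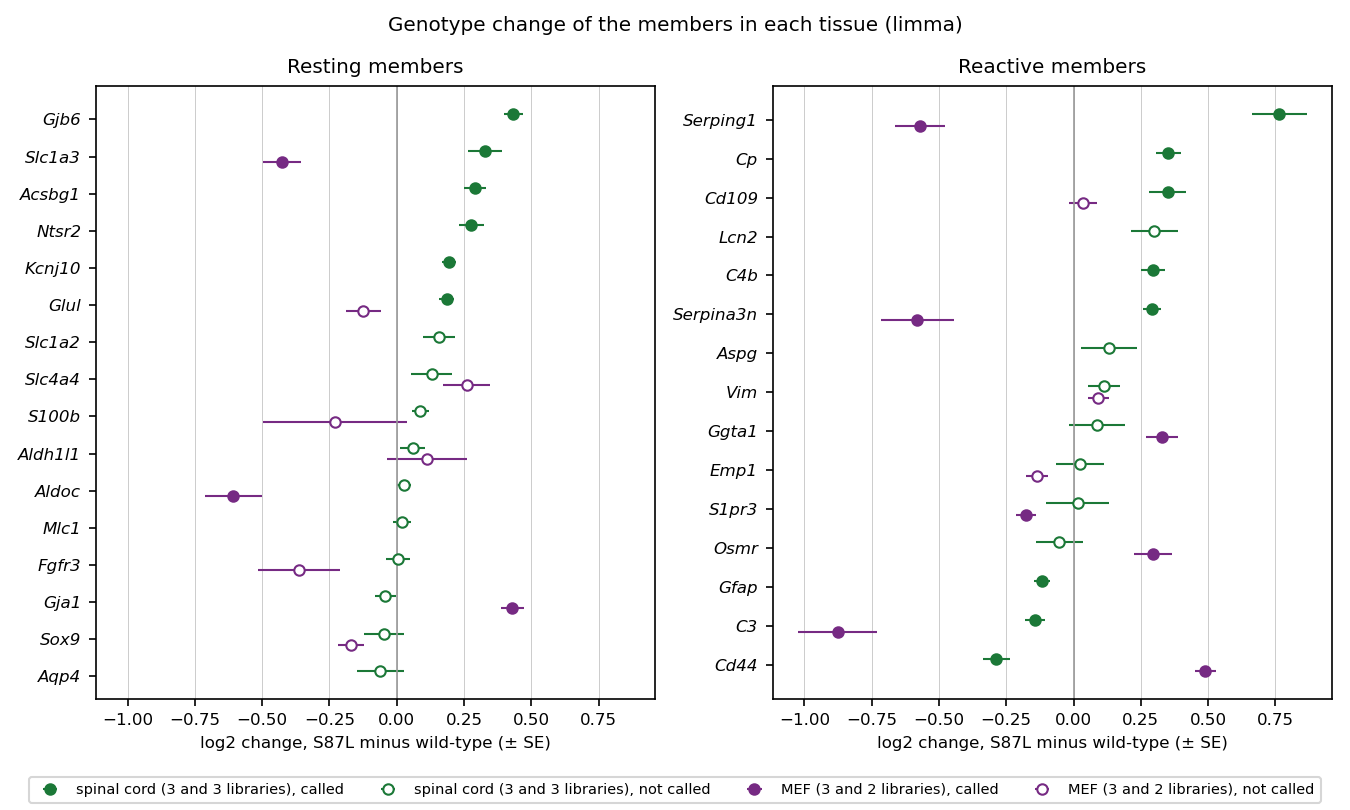
Log2 change, S87L minus wild-type, with its moderated SE (x), of each member (y) in spinal cord (green) and MEF (purple); filled points were called by limma, and members under the level filter in MEF have no purple point. Serping1, Serpina3n and Slc1a3 lie to the right of 0 in cord and to the left in MEF, and Cd44 the reverse.

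Whether the genotype effect differed between the tissues was tested as an interaction in a fit of all 11 libraries. Of the 9 resting members that passed the level filter in MEF, 4 had a lower and 1 a higher change in MEF than in cord, and of 10 such reactive members 4 and 2, beside 7.07% and 6.03% of the 12389 genes that passed in both tissues. In the fit of all 17032 genes 12.2% were called, 6.46% lower and 5.77% higher. It also called 6 of 7 resting and 2 of 5 reactive members, all lower, that passed only through their cord level. For these, the pseudocount shrinks a MEF change, so the term can restate the cord change: Ntsr2, with 0 MEF reads, had 0.28 in cord and -0.28 as its interaction. This did not hold for all of them. Gfap had -0.12 in cord and -1.09 as its interaction, Aqp4 -0.06 and -0.49, and C4b 0.29 and -0.82. Among members that passed in both tissues, Serping1 had the largest difference on the log2(FPKM + 0.5) scale (-1.33, SE 0.16, adjusted p = 5.81e-04), followed by Serpina3n (-0.87, SE 0.12, adjusted p = 0.00139). The pseudocount also shrinks the MEF change of low members that passed, such as C3 (-0.73), so this order depends on it. Cd44 differed the other way (0.78, SE 0.06, adjusted p = 4.25e-05), as did Gja1 (0.47, SE 0.06, adjusted p = 6.32e-04). Of the members that passed in both tissues, Gja1, Slc1a3, Aldoc, Serpina3n, Serping1, C3 and Cd44 kept this call under every setting and with each library left out. C3 (mean 0.790 FPKM in wild-type and 0.203 in S87L MEF) and Fgfr3 (0.613 and 0.366) passed the MEF filter only through their wild-type libraries.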

How the data were processed

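The authors deposited FPKM values, 1 column per library, for 55487 Ensembl genes in 11 libraries. Per the submitters' processing notes, HTSeq 0.11.3, HISAT2 2.2.1, Trimmomatic 0.39 and Picard 2.25.5 were used with GRCm38; the sources used here do not give their roles, the annotation release or the strand setting. A directional library kit was used, per the labels' protocols. Multiplied by the exon length in GENCODE M21, 98.51% to 98.6% of values per library came out as whole reads within 0.05, which gave the depth. Symbols and coordinates came from GENCODE M21 (GRCm38), in which 260 identifiers were not found. Library titles gave the groups.

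Genes with a mean of at least 0.5 FPKM in a tissue were fitted on log2(FPKM + 0.5) with the trend and robust options of limma 3.58.1 (R 4.3.3), per tissue for genotype and over all libraries for the interaction and the tissue contrast, taking genes that reached 0.5 in either tissue. Calls needed an adjusted p (Benjamini-Hochberg, across every gene in the fit) below 0.05. Changes on this scale understate those of low genes. The fit was tested on simulated data. The members, the further lists and the alternatives were chosen with earlier results of these data known. All members are accounted for; values per library are given for members called in cord and for Gfap, Vim, Aqp4, Slc1a2 and C3, and up to 3 called genes of each further pathway list with the smallest p are named, except 1 that is not reported here. Gja1 in cord, Lcn2 and the MEF values per library were chosen after their values were seen.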

Additional observations from a re-analysis of the deposited data

Results flagged for a closer look

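The limma interaction term, MEF against spinal cord, was called for 19 members (adjusted p under 0.05, log2 MEF change minus cord change). Of these, Gjb6, Aqp4, Slc1a2, Ntsr2, Kcnj10, Acsbg1, Gfap and C4b were under the level filter in MEF and entered through their cord level. Their MEF levels were low, so the size of a MEF change is poorly measured, and for Ntsr2, with 0 MEF reads, not at all. The values of Gfap and Aqp4 had the sign of their cord changes (-0.12 and -0.06) and were larger, so they do not restate those changes. That of C4b was larger than its cord rise of 0.29. Gfap had 140 reads over the wild-type and 6 over the S87L MEF libraries. In the resting list the values were -0.53 for Gjb6, -0.49 for Aqp4, -0.35 for Slc1a2, -0.76 for Slc1a3, -0.63 for Aldoc, -0.37 for Fgfr3, -0.31 for Glul, -0.28 for Ntsr2, -0.47 for Kcnj10 and -0.49 for Acsbg1, and 0.47 for Gja1. In the reactive list they were -1.09 for Gfap, -0.87 for Serpina3n, -1.33 for Serping1, -0.82 for C4b, -0.73 for C3 and -0.31 for Cd109, and 0.78 for Cd44 and 0.35 for Osmr. The calls of Aqp4, Slc1a2, Fgfr3, Ntsr2, Acsbg1, Osmr and Cd109 were each lost with at least 4 of the 11 libraries left out in turn. With voom on recovered reads the adjusted p was 0.145 for Gjb6, 0.203 for Aqp4, 0.220 for Slc1a2, 0.145 for Acsbg1 and 0.946 for Ntsr2. Groups of 3 libraries or fewer were not tested for outlying samples.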

How the results depend on the processing

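In 2184 combinations of a member's value and another setting, no called value changed direction, 157 calls were lost, 24 were gained and 2003 stayed on their side of the threshold; 14 uncalled values changed sign under some setting. Genes called in spinal cord numbered 2016, against 3358 after removal of the GC and length trend, 3098 with library weights and 838 to 1637 with 1 library left out. Called resting members of cord ranged from 4 to 7 and reactive members from 4 to 6 with 1 library left out. In MEF, 1547 genes were called, against 788 with no filter, 2773 with voom on recovered reads (an alternative chosen after seeing the data), 182 with the replicate block and 565 to 1753 with 1 library left out, where a lone S87L library is assumed to vary like the wild-type group. Of 3 called resting MEF members, 0 remained called with the replicate block, 6 were called with voom and 1 to 4 with 1 library left out. Of 7 reactive ones, 4 were called with library weights, 3 without trend and robust settings, 3 with no filter, 0 with the replicate block and 1 to 6 with 1 library left out. Interaction calls were 2082, with 982 higher and 1100 lower, against 747 and 1457 with median ratio scaling, 978 in all with the replicate block and 1372 to 2246 with 1 library left out. Resting members with an interaction call were 11, against 7 with quantile normalization, 7 with voom, 5 with the replicate block and 6 to 11 with 1 library left out. The reactive minus resting median in cord was 0.0052, against 0.0967 with library weights, 0.1087 with quantile normalization and -0.0438 to 0.0783 with 1 library left out. With 1 library left out, calls in cord were 1 to 2 for resting and 2 to 4 for reactive members of at least 1 FPKM in MEF, and 2 for reactive members under it, as without trend and robust settings or with no filter (2 each).

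The replicate numbers were not shown to pair the libraries: same-numbered libraries had correlations of their deviations from the group means of 0.14, -0.08 and 0.18 in cord and -0.13 and -0.08 in MEF, not every library correlated best with its own number, and the numbers carry no label of a shared litter or batch. With the replicate block 1663 genes were called in cord, and among members there the call of C3 was lost (adjusted p = 0.0532). Negative binomial count models were planned and not run, since the deposited values are FPKM. The level filter kept Tgm1 and Steap4 out of the cord test and 7 of 16 resting members out of the MEF test.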

Other observations

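Sex-linked genes were read as a check on the libraries. Xist was 23.6 to 28.3 FPKM in wild-type and 17.3 to 18.9 in S87L cord, and 35.0 to 35.9 and 38.0 to 44.0 in MEF, while the Y-linked Kdm5d and Eif2s3y were at 0 in all 11 libraries and Ddx3y was at or under 0.0206 FPKM. The Y-linked Uty was at 0 in all wild-type cord and all MEF libraries, but not in every S87L cord library. Xist was lower in S87L cord (log2 fold change -0.53, SE 0.07, limma adjusted p = 0.00447).

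In MEF, of 41 further astrocyte homeostasis genes listed, 25 were tested, 2 were called higher and 11 lower (median -0.12). Over all 13773 genes tested in MEF 4.91% were called higher and 6.32% lower. The S87L MEF group had 2 libraries, and MEF calls fell from 1547 to 182 genes with the replicate block. Gpr37l1, Atp13a4 and Hes5 were among the genes at 0 in every MEF library.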
